A study of Mus musculus with 35 samples.

Results

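Developmental transcription factors are the genes by which an embryo sets up its organs, and in other tissues they are textbook examples of genes kept silent by Polycomb. The set described here was a list of 51 named mouse regulators of eye, brain, heart, skeleton, kidney, endoderm and muscle, drawn up by name, with earlier results of these data known, and with no threshold on a measured value. Of these, 41 had a row among the 19138 genes counted, and the other 10 (Sox1, Sox17, Nkx2-5, Nkx6-1, Neurog1, Hand1, Hand2, Gsc, Cdx2 and Irx3) were not analysed here. The counts came from LT-HSCs (long-term haematopoietic stem cells), which renew themselves for life and feed every blood lineage, sorted as 1000 cells per library from mice of 6 genotypes. The question put to them was whether loss of Ezh2 brings RNA of these regulators into view.

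Polycomb repressive complex 2 (PRC2) places methyl groups on lysine 27 of histone H3, and Ezh2 is its catalytic subunit, with Ezh1 as a second enzyme of the same kind. Complex PRC1 binds the marked chromatin and modifies histone H2A. In embryonic stem cells the pair covers CpG-rich promoters of developmental regulators, most of which stay closed in blood cells.

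All mice carried SclCre, a Cre recombinase named for Scl, a gene of blood stem cells and endothelium. The groups were JAK2-VF Ezh2-null (JAK2V617F with Ezh2 -/-, 6 libraries), JAK2-VF Ezh2-heterozygous (JAK2V617F with Ezh2 +/-, 8), JAK2-VF (JAK2V617F with Ezh2 +/+, 6), Ezh2-null (Ezh2 -/-, 4), Ezh2-heterozygous (Ezh2 +/-, 7) and control (SclCre with Ezh2 +/+, 4). JAK2V617F is the activating kinase mutation of myeloproliferative neoplasms. Ages of the mice are not used here, and no label ties a library to an animal, so p-values measure the spread between libraries, which may be technical. Libraries came from 2 batches (14 and 21 libraries) and from 20 females and 15 males. Sex was unbalanced, with 5 females and 1 male among JAK2-VF Ezh2-null libraries against 2 females and 4 males among JAK2-VF libraries, and 1 female and 3 males among Ezh2-null libraries against 4 female controls.

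Library totals ran from 13.55 to 48.56 M counts (M for mega, median 24.91 M). All 10 HSC markers had counts in every group, with a summed level of 2310 to 5978 CPM (counts for each 1 M counts of a library). A stretch of Ezh2 with an entry of its own in the counts checked the Ezh2-null and Ezh2-intact labels. It held 0 of 5046 Ezh2 counts in JAK2-VF Ezh2-null libraries against 6.34% to 9.27% of Ezh2 counts in JAK2-VF libraries, and 0% to 0.479% in Ezh2-null libraries against 6.02% to 8.72% in controls. In JAK2-VF Ezh2-heterozygous libraries it held 4.08% to 8.5%, and in Ezh2-heterozygous libraries 0% to 9.5%. These ranges overlapped those of Ezh2-intact libraries, so the stretch could not tell heterozygous from Ezh2-intact libraries. Among libraries labelled Ezh2-heterozygous, batch 1 replicate 1 was labelled male but held 394.2 CPM of Xist, where no other male library passed 14.75 CPM, and batch 1 replicate 3 held no count of that Ezh2 stretch. Both were kept, and values without them are given where they moved a result. In whole sorted populations, fewer cells expressing a gene and less RNA per cell cannot be told apart.

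RefSeq promoter windows of GRCm38.p6, running from 250 bases before to 50 after the annotated start, were at hand for 27 of the 41 regulators. They are printed for 4 of the 7 regulators with enough counts to be tested, so that the kind of promoter behind the values can be seen, with every CG dinucleotide in capitals. The windows are those of Isl1 (chr13:116309639-116309938, minus strand), Pax6 (chr2:105668646-105668945, plus strand, the most upstream of its listed starts), Sox11 (chr12:27342669-27342968, minus strand) and Pax8 (chr2:24475550-24475849, minus strand). The build of these windows differs from that of the counts, and they are used only to show sequence.
Isl1: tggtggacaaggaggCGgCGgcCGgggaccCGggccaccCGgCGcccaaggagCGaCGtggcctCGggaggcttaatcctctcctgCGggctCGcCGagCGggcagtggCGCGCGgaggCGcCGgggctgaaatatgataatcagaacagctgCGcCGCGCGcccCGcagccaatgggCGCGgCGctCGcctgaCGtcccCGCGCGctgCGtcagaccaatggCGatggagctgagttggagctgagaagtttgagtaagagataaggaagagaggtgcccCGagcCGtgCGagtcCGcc
Pax6: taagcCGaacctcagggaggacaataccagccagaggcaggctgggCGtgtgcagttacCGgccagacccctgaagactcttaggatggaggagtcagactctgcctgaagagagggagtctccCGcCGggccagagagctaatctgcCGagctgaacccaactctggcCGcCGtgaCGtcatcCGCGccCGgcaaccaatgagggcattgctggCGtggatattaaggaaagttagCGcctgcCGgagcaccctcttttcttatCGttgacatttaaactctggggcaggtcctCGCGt
Sox11: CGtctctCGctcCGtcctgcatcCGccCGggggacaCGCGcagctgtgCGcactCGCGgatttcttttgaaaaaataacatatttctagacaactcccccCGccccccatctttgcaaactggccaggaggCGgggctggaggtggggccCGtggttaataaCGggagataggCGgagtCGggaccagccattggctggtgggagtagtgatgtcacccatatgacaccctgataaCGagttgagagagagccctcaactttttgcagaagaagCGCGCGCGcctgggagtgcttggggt
Pax8: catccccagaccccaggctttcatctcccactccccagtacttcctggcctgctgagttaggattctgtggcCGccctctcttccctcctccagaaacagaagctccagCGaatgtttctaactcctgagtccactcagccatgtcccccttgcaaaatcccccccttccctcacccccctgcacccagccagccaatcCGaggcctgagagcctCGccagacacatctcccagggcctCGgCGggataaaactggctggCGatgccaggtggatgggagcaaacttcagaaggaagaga

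CG, which reads the same on both strands, occurred 37 times in the Isl1 window, 21 times in the Sox11 window, 18 times in the Pax6 window and 7 times in the Pax8 window. Of the 27025 genes with a window, 5.37% held at least as many as Isl1, 25% at least as many as Sox11, 30.1% at least as many as Pax6 and 52.3% at least as many as Pax8, and 94.2% held at least 1. The median over the 27 regulators was 25 CG (range 6 to 37), and the median over all genes with a window was 7.

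Nearly all of these regulators were silent or close to it in LT-HSCs of every genotype. Together the 41 genes took 6050 of 965.2 M counts, or 6.27 CPM. A gene and library pair held a count in 315 of 1435 cases (21.9%), against 75.6% over all genes. Only Isl1 averaged at least 1 CPM over the 35 libraries, a level that 67.2% of all genes reached. Per kilobase of gene, the median regulator had a level below that of 92.4% of genes. None was at 0 everywhere, but 11 regulators had counts in 1 library alone, 21 in 1 to 3 libraries, and 21 had under 10 counts over all libraries together. A few genes carried the sum: Isl1 gave 58.3% of all regulator counts, Isl1, Sox9 and Pax6 together 71.3%, and the 7 regulators that passed the low-count filter 87.5%.

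**Figure D1:**
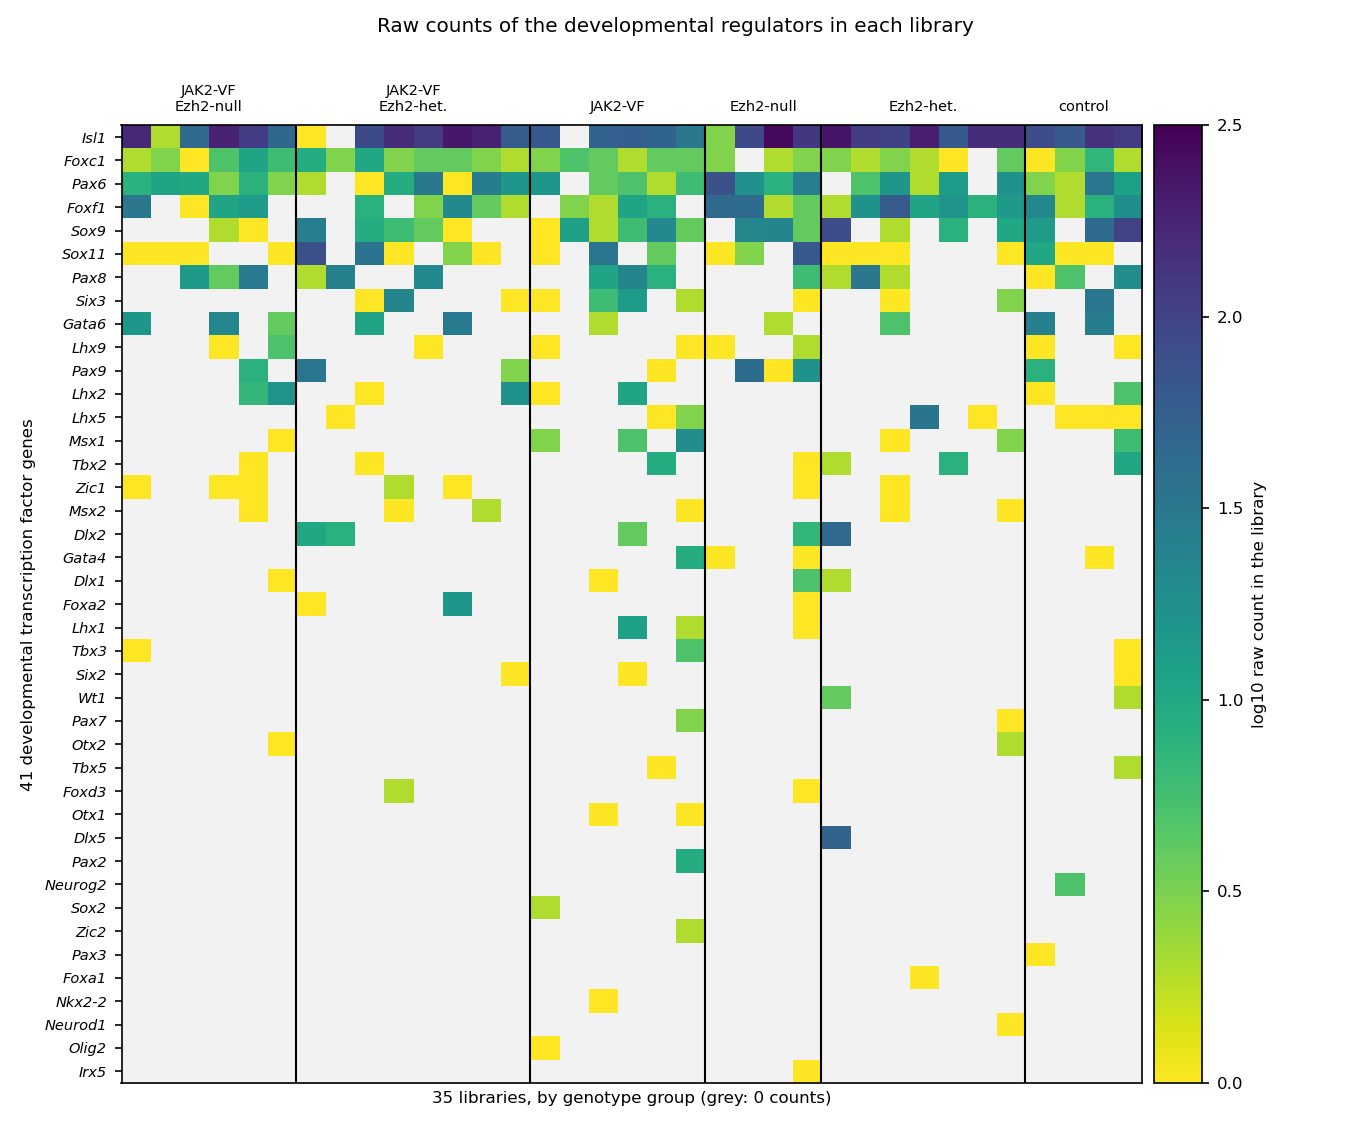
Raw counts of the 41 regulators (rows, ordered by the number of libraries with a count) in the 35 libraries (columns, by genotype group), on a log10 colour scale with 0 in grey. Isl1 and Foxc1 had counts in 33 libraries each, 11 regulators had counts in a single library, and no group stands out as a block.

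Isl1, a LIM-homeodomain factor of motor neurons, heart progenitors and pancreas, was the exception in level. Per kilobase its mean level was below that of 59.7% of genes. It had counts in 33 of 35 libraries and was at 0 in JAK2-VF batch 1 replicate 2 and JAK2-VF Ezh2-heterozygous batch 1 replicate 2. In JAK2-VF Ezh2-null libraries its level ran from 0.0845 to 6.84 CPM with a median of 2.45, and in JAK2-VF libraries from 0 to 2.78 CPM with a median of 1.53. The groups overlapped, with 3 of 6 JAK2-VF Ezh2-null libraries above every JAK2-VF library. In Ezh2-null libraries it was 0.138, 2.98, 8.61 and 4.1 CPM, against 4.09, 2.95, 6.51 and 5.2 CPM in controls. The Ezh2-null values thus ran both below and above the whole control range, and the low value was that of the single batch 1 library. In the whole series, every library with at most 3 Isl1 counts was of batch 1. No batch 2 library was below 0.876 CPM, while other batch 1 libraries reached up to 9.61 CPM. Ezh2-heterozygous libraries held 4.35 to 11.2 CPM (median 5.62, with the same range and median without the doubted pair) and JAK2-VF Ezh2-heterozygous libraries 0 to 6.49 CPM (median 3.58). In order of medians the groups were Ezh2-heterozygous, control, JAK2-VF Ezh2-heterozygous, Ezh2-null, JAK2-VF Ezh2-null and JAK2-VF, and every pair of neighbours in this order overlapped.

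Other LIM-homeodomain genes were sparse. Lhx2, of eye and forebrain, had 59 counts in 8 libraries, most of them in JAK2-VF Ezh2-heterozygous batch 2 replicate 5 (17 counts), JAK2-VF Ezh2-null batch 2 replicate 3 (16) and JAK2-VF batch 2 replicate 2 (11). Lhx5, of the forebrain, had 43 counts, 34 of them in Ezh2-heterozygous batch 2 replicate 1. Lhx1, of kidney and head, had 15 counts, 12 in JAK2-VF batch 2 replicate 2, and Lhx9, of the gonad, 14 counts spread over 9 libraries with at most 5 in one.

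The paired-box genes were led by Pax6, the eye and brain regulator, with 391 counts in 31 libraries. Pax6 was at 3.45, 0.569, 0.245 and 0.892 CPM in Ezh2-null libraries, against 0.15, 0.0937, 1.53 and 0.538 CPM in controls. In JAK2-VF Ezh2-null libraries it ran from 0.0618 to 0.465 CPM (median 0.274), and in JAK2-VF libraries from 0 to 0.641 CPM (median 0.142). Its highest value was that of the single Ezh2-null library of batch 1, and the groups of both pairs overlapped. Pax8, of thyroid and kidney, had 205 counts in 16 libraries, among them 1 of 4 Ezh2-null libraries (6 counts) against 3 of 4 controls (1, 5 and 19 counts), and 3 of 6 JAK2-VF Ezh2-null libraries (14, 4 and 30 counts) against 3 of 6 JAK2-VF libraries (11, 23 and 8 counts). Pax9, of pharyngeal pouch and teeth, had 112 counts in 8 libraries, with 41, 1 and 17 counts in 3 Ezh2-null libraries against 8 counts in 1 control, and 8 counts in 1 JAK2-VF Ezh2-null library against 1 count in 1 JAK2-VF library. Pax2, of the kidney, had 9 counts in 1 library, Pax7, of muscle stem cells, 4 counts in 2 libraries, and Pax3, of neural crest and muscle, a single count.

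Among Sox genes, Sox9, which drives cartilage and testis formation, had 398 counts in 23 libraries. In JAK2-VF Ezh2-null libraries Sox9 had 0 counts in 4 libraries and 2 and 1 counts in the others, or 0 to 0.0412 CPM, and in JAK2-VF libraries 1 to 21 counts, or 0.0427 to 0.593 CPM with a median of 0.147. Every JAK2-VF Ezh2-null library was below every JAK2-VF library, but the gap lay between 2 counts in the deepest library of the series and 1 count in a JAK2-VF library. The ratio of the summed counts per depth (3 against 46 counts) was 0.0623, with an exact 95% interval of 0.0124 to 0.194 that covers counting error only. In Ezh2-null libraries Sox9 was at 0, 0.737, 0.704 and 0.132 CPM, against 0.649, 0, 1.95 and 4.35 CPM in controls. Sox11, of neuronal progenitors, had 245 counts in 22 libraries, and 78, 65, 35 and 33 of them fell in 4 libraries of 3 genotypes. In Ezh2-null libraries it had 1, 3, 0 and 65 counts, against 10, 1, 1 and 0 counts in controls, and at most 1 count in each JAK2-VF Ezh2-null library against 1, 0, 33, 0, 4 and 0 counts in JAK2-VF libraries. Sox2, the pluripotency and neural stem cell factor, had 2 counts in JAK2-VF batch 1 replicate 1 and none in any other library.

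Of the forkhead genes, Foxf1, of lateral mesoderm and lung vessels, had 388 counts in 28 libraries. It was at 1.98, 1.41, 0.0612 and 0.132 CPM in Ezh2-null libraries, against 1.1, 0.0937, 0.372 and 0.807 CPM in controls, so that 2 Ezh2-null libraries exceeded every control and the third was below all of them. In JAK2-VF Ezh2-null libraries Foxf1 ran from 0 to 1.3 CPM (median 0.133), and in JAK2-VF libraries from 0 to 0.34 CPM (median 0.107). Foxc1, of mesoderm, eye and marrow niche cells, was spread more evenly. It had counts in 33 libraries but never more than 11 in one, at a median of 0.0802 CPM in Ezh2-null libraries against 0.115 CPM in controls and 0.115 CPM in JAK2-VF Ezh2-null libraries against 0.119 CPM in JAK2-VF libraries. Foxa2, of endoderm and notochord, had 17 counts, 15 of them in JAK2-VF Ezh2-heterozygous batch 2 replicate 3, Foxd3, of neural crest, had 3 counts and Foxa1, of endoderm, 1.

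Gata6, of endoderm and heart, had 144 counts in 10 libraries, with at least 1 such library in every group. It had 15, 22 and 4 counts in 3 of 6 JAK2-VF Ezh2-null libraries against 2 counts in 1 of 6 JAK2-VF libraries, and 2 counts in 1 of 4 Ezh2-null libraries against 26 and 28 counts in 2 of 4 controls. The groups lay in opposite order in these pairs, and in each pair libraries at 0 stood in both groups. Gata4, of the heart, had 12 counts, 9 of them in JAK2-VF batch 2 replicate 4.

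The Dlx and Msx homeobox genes pattern the face, teeth and forebrain. Dlx5 had 51 counts, all in Ezh2-heterozygous batch 1 replicate 1, the library whose Xist level went against its label. The same library held 44 of the 73 counts of Dlx2, 2 of the 9 counts of Dlx1, 4 of the 6 counts of Wt1, the kidney and gonad regulator, and 81 counts of Sox9. Without the doubted pair of libraries Dlx5 therefore had no count in the series, with the other 33 libraries at 0. Outside that library, Dlx2 had 7 counts in Ezh2-null batch 2 replicate 3, beside 5 counts of its neighbour Dlx1, 4 counts in a JAK2-VF library and 10 and 8 counts in JAK2-VF Ezh2-heterozygous libraries. Msx1 had 38 counts in 7 libraries, 19 of them in JAK2-VF batch 2 replicate 4, and Msx2 7 counts in 6 libraries.

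T-box genes, which act in heart and limb, stayed low too: Tbx2 had 32 counts in 7 libraries (at most 10 in one), Tbx3 had 7 counts and Tbx5 had 3. Six3, of forebrain and eye, had 85 counts in 11 libraries, 33 of them in control batch 2 replicate 2 and 23 in JAK2-VF Ezh2-heterozygous batch 2 replicate 1. Six3 had no count in the 6 JAK2-VF Ezh2-null libraries, against 1, 6, 13 and 2 counts in 4 of the 6 JAK2-VF libraries. Zic1, of the cerebellum, had 8 counts in 7 libraries. Six2, Otx1, Otx2, Zic2, Nkx2-2, Irx5 and the proneural and glial genes Neurog2, Neurod1 and Olig2 had between 1 and 5 counts each over the whole series.

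Counts of a regulator were thus heaped in a few libraries rather than spread by depth. Of the 20 regulators with at least 10 counts, 7 (Dlx2, Dlx5, Lhx5, Msx1, Foxa2, Lhx1 and Gata4) had 50% or more of their counts in 1 library, and the median share of the top library was 33.8%. The variance over libraries, in units of the counting noise that depth alone would give (1 if reads fell by depth alone), was 1.9 for Foxc1, 8.6 for Msx1, 22.8 for Pax6, 51.9 for Sox9, 52 for Isl1 and 53.3 for Sox11. Among the 16 regulators with at least 30 counts, Foxc1 had the lowest of these values and Dlx5 the highest, at 59.8. These shares and variances were not worked out over all genes, so they are not read as particular to the regulators. Averaged over tested genes with enough counts, 2 libraries of a group also differed by at least 46.5 times counting noise. These libraries were made from 1000 cells each, without molecular identifiers, and several reads of 1 molecule cannot be told from several molecules.

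On average fewer of these regulators, not more, had a count in stem cells with 1 or both Ezh2 alleles lost, with groups that overlapped. The mean share of all genes with a count was 76.1% in JAK2-VF Ezh2-null and 76.7% in JAK2-VF libraries. It was 76% in Ezh2-null and 75.9% in control libraries. In Ezh2-heterozygous libraries it was 73.7% and in JAK2-VF Ezh2-heterozygous libraries 75.6%, each below the Ezh2-intact group of its pair. Fewer of all genes thus had a count in the heterozygous groups as well. The JAK2-VF Ezh2-null libraries held counts of 4 to 11 regulators (8 ± 2.61, SD, n = 6), against 3 to 16 in JAK2-VF libraries (10.8 ± 4.26, n = 6). The 4 Ezh2-null libraries held counts of 7, 6, 7 and 19 regulators (9.75 ± 6.18, n = 4), against 12, 8, 10 and 15 in controls (11.2 ± 2.99, n = 4). Ezh2-heterozygous libraries held 3 to 12 (mean 8, or 6.6 without the doubted pair) and JAK2-VF Ezh2-heterozygous libraries 4 to 10 (mean 7.75). The lower means were thus not particular to loss of both alleles. Counted from 10 counts up, the means were 2.67 in JAK2-VF Ezh2-null and 2.67 in JAK2-VF libraries, so that no difference in direction remained there, and 3.25 in Ezh2-null libraries against 4.25 in controls. With every library thinned to the smallest total, 13.55 M, the means were 6.07 ± 1.85 in JAK2-VF Ezh2-null against 8.55 ± 3.1 in JAK2-VF libraries and 7.7 ± 4.09 in Ezh2-null libraries against 9.79 ± 2.54 in controls. Thinned means were 6.92 ± 2.74 in Ezh2-heterozygous and 6.18 ± 1.65 in JAK2-VF Ezh2-heterozygous libraries. The groups overlapped at both depths. Within batches the thinned means were 4.8 in JAK2-VF Ezh2-null against 5.55 in JAK2-VF libraries of batch 1, 7.33 against 10.1 in those of batch 2, and 8.35 in Ezh2-null libraries against 10.9 in controls of batch 2. The single Ezh2-null library of batch 1 was at 5.76, against 6.94 and 10.3 in the controls of that batch.

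The summed level of the 41 regulators overlapped between the groups as well. It was 0.718 to 9.28 CPM in JAK2-VF Ezh2-null libraries (mean 4.29 ± 2.96, SD, n = 6) against 0.989 to 4.64 CPM in JAK2-VF libraries (3.22 ± 1.28, n = 6), and 5.84, 7.17, 9.77 and 8.99 CPM in Ezh2-null libraries (7.94 ± 1.78, n = 4) against 8.44, 3.84, 13.7 and 13.1 CPM in controls (9.78 ± 4.6, n = 4). Without Isl1, Sox9 and Pax6 the means were 1.17 ± 0.763 CPM in JAK2-VF Ezh2-null libraries against 1.35 ± 0.845 CPM in JAK2-VF libraries, and 2.3 ± 1.54 CPM in Ezh2-null libraries against 2.77 ± 1.34 CPM in controls. The groups of each pair overlapped with and without these 3 genes.

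**Figure D2:**
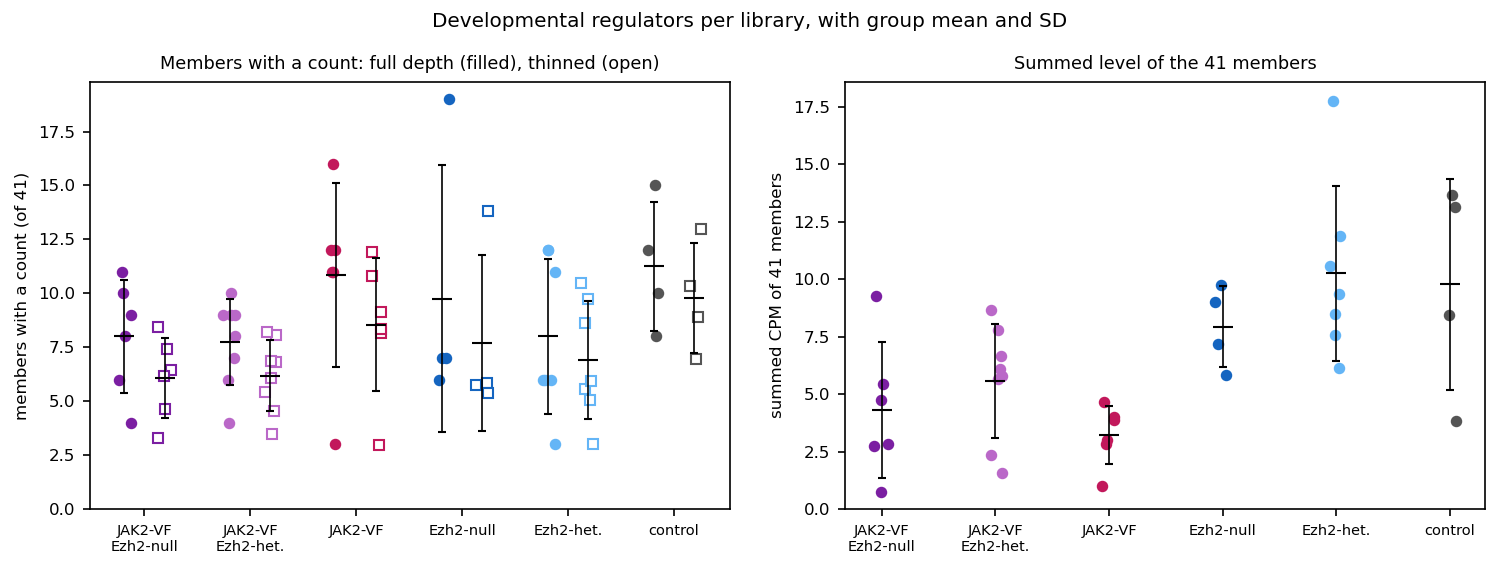
Left, number of the 41 regulators with at least 1 count in each library at full depth (filled) and thinned to 13.55 M counts (open). Right, summed CPM of the 41 regulators per library. Points are libraries, and black marks are group means with SD. The Ezh2-null library with 19 regulators stands above the other 3 of its group, at 6 to 7, and the groups of each Ezh2 pair overlap.

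No regulator was at 0 in every control library and counted in every Ezh2-null library. By summed counts per depth, 13 regulators were higher in Ezh2-null cells, 16 were lower and 12 were at 0 in both, and of all genes with a count and a difference 45.5% were higher. Counts in Ezh2-null libraries with none in controls were found for 7 regulators (Foxa2, Foxd3, Lhx1, Dlx1, Dlx2, Irx5 and Zic1), and the highest of these summed to 7. All 7 had their counts in Ezh2-null batch 2 replicate 3, and without that library the number was 0. Conversely 9 regulators (Pax3, Tbx3, Tbx5, Lhx2, Lhx5, Six2, Msx1, Neurog2 and Wt1) had counts in controls and none in Ezh2-null libraries, or 4 without control batch 2 replicate 4. For counts in 1 group of a pair alone, here and below, no share over all genes was worked out, so no difference is read from them. No regulator had every Ezh2-null library above every control, and none had every one below; over all genes with a count these shares were 1.05% and 1.44%. By counting error alone, the 21 regulators without a count in Ezh2-null libraries could have been present at up to 0.0262 CPM (3 counts of the summed depth of 114.5 M), and the 19 without one in controls at up to 0.0352 CPM. The spread between libraries is not in these limits, which are therefore too low.

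In the library with 19 regulators, Ezh2-null batch 2 replicate 3, the summed HSC markers were at 5748 CPM and the summed endothelial markers at 32.9 CPM, each the second highest of 35 libraries, while stroma and bone markers at 23.2 CPM ranked 32nd and erythroid markers at 23.1 CPM were the lowest. Their part in the regulator counts was not tested.

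With JAK2-VF, again no regulator was at 0 in every library with Ezh2 and counted in every library without it. By summed counts per depth, 11 regulators were higher in JAK2-VF Ezh2-null cells, 21 were lower and 9 were at 0 in both, where 54.6% of all genes with a count and a difference were higher. Otx2 and Zic1 were counted in JAK2-VF Ezh2-null libraries alone of the pair, with at most 3 counts in sum. Counts in JAK2-VF libraries alone were found for 14 regulators (Pax2, Pax7, Sox2, Gata4, Tbx5, Lhx1, Lhx5, Six2, Six3, Nkx2-2, Otx1, Dlx2, Olig2 and Zic2), or 10 without JAK2-VF batch 2 replicate 4. Over all its libraries the JAK2-VF group had counts of 30 regulators, against 18 to 22 in every other group. Among these, JAK2-VF Ezh2-heterozygous libraries had 20. In the wider list described below, 20 of 65 genes were at 0 in every JAK2-VF library, against 35 to 41 in every other group. The order was thus not particular to the 41 regulators, and without a share over all genes no difference is read from it. No regulator had every JAK2-VF Ezh2-null library above every JAK2-VF library, against 0.756% of genes with a count, and Sox9 alone had every one below, as was so for 0.101% of genes with a count. By counting error alone, the 23 regulators without a count in JAK2-VF Ezh2-null libraries could have been present at up to 0.0159 CPM, and the 11 without one in JAK2-VF libraries at up to 0.0167 CPM.

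JAK2-VF batch 2 replicate 4, with 16 regulators, was the top library for 6 of them (Msx1 with 19 counts, Gata4 and Pax2 with 9 each, Tbx3 with 5, Pax7 with 3 and Zic2 with 2). This library had the lowest summed HSC markers of all 35, 2310 CPM, and the highest summed neutrophil and monocyte markers, 14420 CPM, while endothelial markers at 2.3 CPM ranked 31st. Their part in these counts was not tested. Control batch 2 replicate 4 was the top library for Sox9 (97 counts), Tbx2, Six2 and Tbx5.

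Only 7 regulators, Isl1, Sox9, Pax6, Foxf1, Sox11, Pax8 and Gata6, had counts enough to pass the low-count filter of edgeR, which kept 14945 of the 19138 genes, so 34 of the 41 were not tested. The test was edgeR's quasi-likelihood test, fitted over the 35 libraries with group, batch and sex as terms and adjusted by Benjamini-Hochberg over the 14945 genes, and a gene was called at an adjusted p under 0.05. None of the 7 was called between JAK2-VF Ezh2-null and JAK2-VF cells, where 0.475% of all genes tested were, between Ezh2-null and control cells, where 0.00669% were, or between both Ezh2-null groups and both Ezh2-intact groups together, where 0.408% were. DESeq2 called none either. The number at an unadjusted p under 0.05 was 1 of 7 in JAK2-VF cells (Sox9), 0 of 7 without JAK2-VF and 1 of 7 in the pooled comparison (Sox9), where 7.13%, 5.96% and 7.82% of all genes tested were under it. Without the filter all 41 were tested and 0 were called in each of these comparisons. In that edgeR fit the unadjusted p was under 0.05 for Six3, Msx1, Lhx5, Sox9 and Tbx2 (lower) and Zic1 (higher) in the pooled comparison. The same held for Six3, Msx1 and Sox9 (lower) in JAK2-VF cells and for Tbx2 (lower) without JAK2-VF. The share of all genes under it was not worked out for that fit, and most of these genes had few counts.

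Of the 7 that passed the filter, Sox9 had the smallest p in the pooled comparison, with a log2 change of -2.97 ± 1.25 (SE) and an edgeR adjusted p of 0.506. Its log2 change was -3.86 ± 1.76 in JAK2-VF Ezh2-null against JAK2-VF cells (edgeR adjusted p = 0.635) and -2.08 ± 2.04 in Ezh2-null against control cells (edgeR adjusted p = 1). In the pooled comparison Pax8 had a log2 value of -1.62 ± 1.37, Foxf1 0.84 ± 1.06, Pax6 0.69 ± 1.08, Gata6 -0.44 ± 2.15, Isl1 0.37 ± 0.69 and Sox11 -0.21 ± 0.84, with edgeR adjusted p of at least 0.901. Over the 7 the pooled median was -0.21 with 3 positive values, against -0.0023 over all 14945 genes. The medians were 0.70 with 5 of 7 positive in JAK2-VF cells (all genes 0.0052) and -0.17 with 3 of 7 positive without JAK2-VF (all genes -0.011). These medians cover only the genes that passed the filter.

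**Figure D3:**
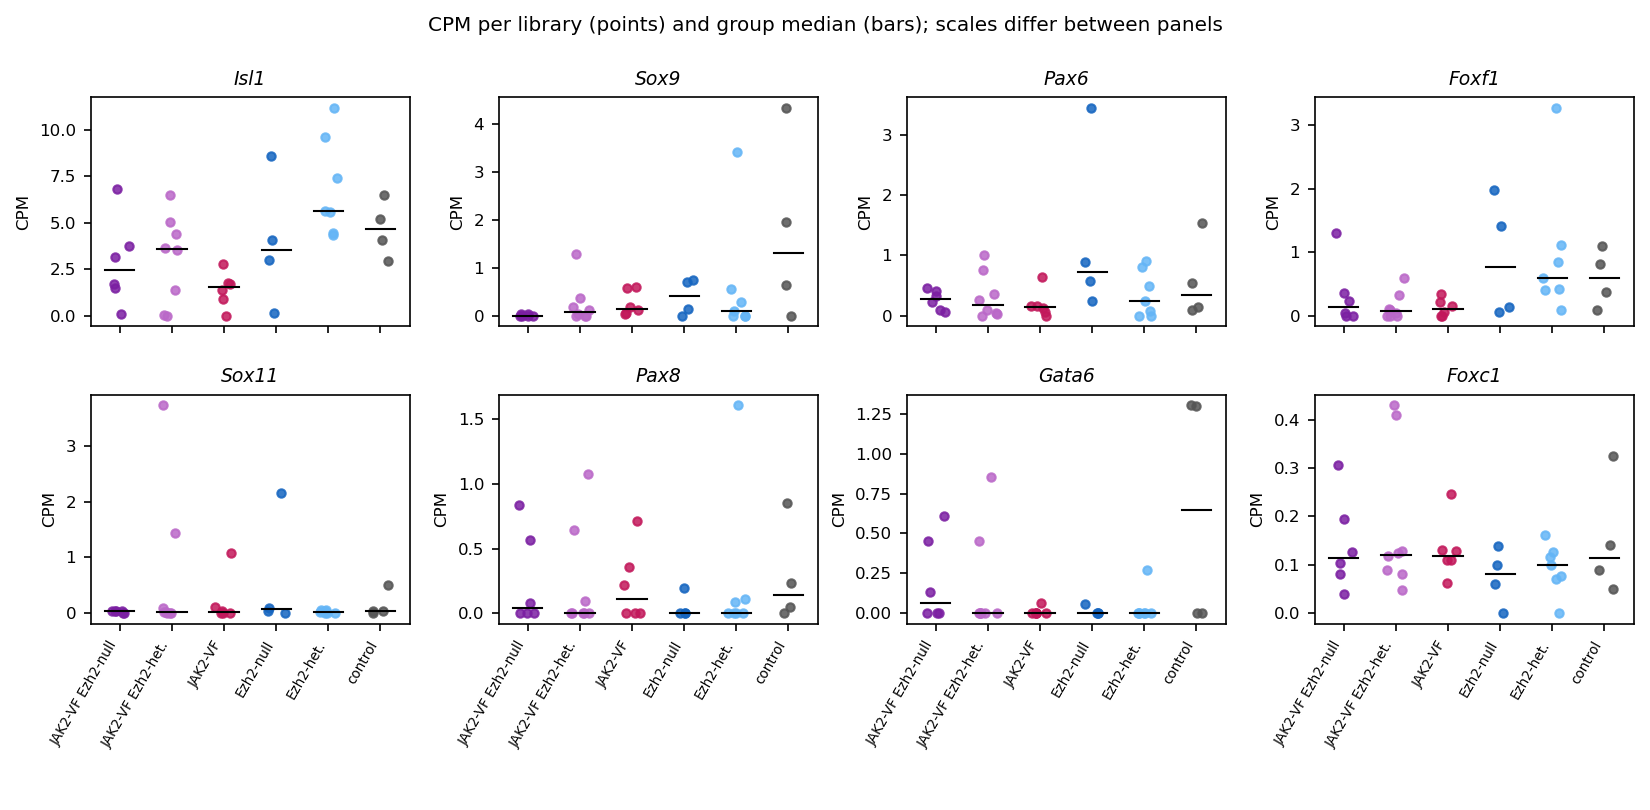
CPM of the 7 tested regulators and of Foxc1 in each library (points) with the group median (bar), on linear axes that differ between panels. Isl1 is the only panel whose median reaches 1 CPM in every group, while Sox11, Pax8 and Gata6 sit at or near 0 in most libraries with a few libraries far above.

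Standard errors were wide, so these tests leave a large range of changes possible. The SE of the log2 change ran from 0.69 for Isl1 to 2.15 for Gata6 in the pooled comparison. Estimates with and without JAK2-VF had opposite signs for Isl1, Gata6, Sox11 and Pax8, and lay farthest apart for Sox11 and Pax8. Sox11 was at -4.00 ± 2.29 in JAK2-VF Ezh2-null against JAK2-VF cells and at 3.58 ± 2.55 in Ezh2-null against control cells. Pax8 was at 1.72 ± 1.95 and at -4.96 ± 2.55 in the same comparisons. The difference between the effects, tested as an interaction, was -7.58 ± 4.08 for Sox11 and 6.68 ± 3.47 for Pax8 (edgeR adjusted p = 0.976 and 0.944). None of the 7 passed that test and 0 of 7 were under an unadjusted p of 0.05, where 0.00669% of all genes were called and 5.41% were under that p.

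**Figure D4:**
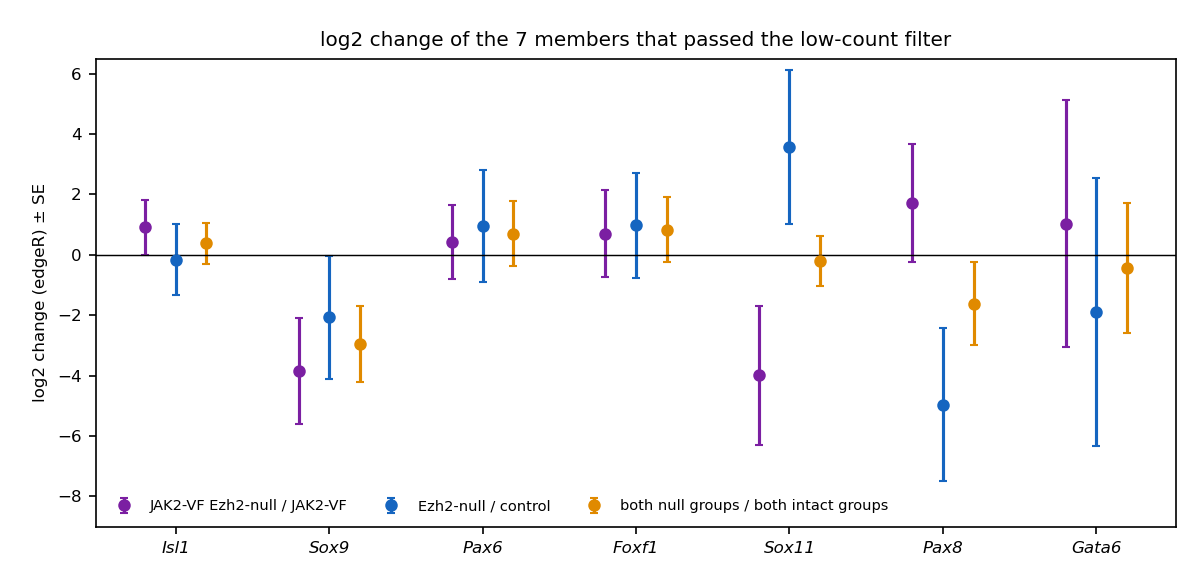
Log2 change (edgeR, points) with SE (bars) of the 7 tested regulators in JAK2-VF Ezh2-null against JAK2-VF cells, Ezh2-null against control cells, and both Ezh2-null groups against both Ezh2-intact groups. Pooled values run from -2.97 for Sox9 to 0.84 for Foxf1, and none was called.

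Loss of 1 Ezh2 allele was read in the same way. None of the 7 was called between JAK2-VF Ezh2-heterozygous and JAK2-VF cells or between Ezh2-heterozygous and control cells, and 0% of all genes were called in either comparison. In edgeR 0 of 7 had an unadjusted p under 0.05 in each, where 3.87% of all genes did with JAK2-VF and 5.17% without it, and DESeq2 called 0. Values ranged from -0.42 ± 1.68 for Sox9 to 1.65 ± 1.81 for Pax8 with JAK2-VF, and from -3.03 ± 2.01 for Gata6 to 0.94 ± 1.53 for Foxf1 without it. In the 7 Ezh2-heterozygous libraries Foxf1 (0.0847 to 3.28 CPM) had its highest value in batch 1 replicate 3, and Sox9 (0 to 3.43 CPM) in batch 1 replicate 1, the doubted libraries. The sum without Isl1, Sox9 and Pax6 was 2.36 ± 1.54 CPM (SD, n = 7) in Ezh2-heterozygous libraries, or 1.55 ± 0.788 CPM (n = 5) without this pair. Without this pair of libraries 8 regulators were tested and 0 were called (lowest edgeR adjusted p = 0.797 against control).

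JAK2-VF alone was set against control as well. None of the 7 was called, where 4.22% of all genes were, and 0 of 7 had an unadjusted p under 0.05 in edgeR, where 17.4% of all genes did (DESeq2 called 0). The number of all genes called rested on single libraries, with 631 in all but 282 without control batch 1 replicate 1, 314 without JAK2-VF batch 1 replicate 1 and 399 without JAK2-VF batch 1 replicate 2. Isl1 was below every control in 6 of 6 JAK2-VF libraries (0 to 2.78 CPM, against 2.95 to 6.51 CPM), as were 3.32% of genes with a count, and no regulator was above every control in all 6, as 2.03% were. Its log2 change was -1.45 ± 1.03 (edgeR adjusted p = 0.505), -1.27 within batch 1 and -1.71 within batch 2. By summed counts 15 regulators were higher in JAK2-VF cells, 18 were lower and 8 were at 0 in both, and 11 had counts in JAK2-VF libraries with none in controls, or 7 without JAK2-VF batch 2 replicate 4. Among the markers called in the same comparison, Mecom, Procr, Hlf and Mllt3 of the HSC list and Cldn5 of the endothelial list (1 of 5 tested) were lower in JAK2-VF cells by edgeR. The summed HSC markers were at 2310 to 3861 CPM in JAK2-VF libraries against 4071 to 5052 CPM in controls, and the summed endothelial markers at 2.3 to 8.01 CPM against 11.7 to 30.9 CPM. Their part in the Isl1 level, and that of sex (4 of 6 JAK2-VF libraries were male, and no control), was not tested.

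The Polycomb genes themselves were well expressed, and Ezh2 and Bmi1 were the ones called in the Ezh2 comparisons. The 11 PRC2 genes summed to 1178 to 1763 CPM and the 17 PRC1 genes to 499.5 to 1003 CPM, and all 28 were tested. Of the PRC2 genes only Ezh2 was called in these comparisons, lower in JAK2-VF Ezh2-null than JAK2-VF cells (27.1 ± 8.26 against 73.3 ± 20.6 CPM, SD, n = 6 each; log2 -1.50 ± 0.21, edgeR adjusted p = 8.2e-05) and lower in the pooled comparison (log2 -1.22 ± 0.16, edgeR adjusted p = 4.8e-05). In Ezh2-null cells it was at 28.4, 25.4, 19.2 and 19.5 CPM, against 50.4, 65.1, 27.8 and 43.7 CPM in controls, and was not called (log2 -0.95 ± 0.26, edgeR adjusted p = 0.453). The JAK2-VF call was lost within batch 1 (log2 -1.38, edgeR adjusted p = 0.585) and in females alone (-1.25, 0.133).

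Of the PRC1 genes, Bmi1, which encodes a core subunit that haematopoietic stem cells need for self-renewal, was higher without Ezh2 in the pooled comparison. It was at 61.9, 45.9, 32.7 and 39.4 CPM in Ezh2-null libraries, against 31.3, 27.1, 30.4 and 24.7 CPM in controls. Bmi1 thus had every Ezh2-null library above every control, as did 1.05% of genes with a count. In JAK2-VF Ezh2-null libraries it ran from 24.4 to 59.6 CPM, against 10 to 34.7 CPM in JAK2-VF libraries, and the groups overlapped. The pooled log2 change was 0.89 ± 0.17 (edgeR adjusted p = 0.00708). It was not called within either pair alone (edgeR adjusted p = 0.532 without JAK2-VF and 0.157 with it), within batch 1 (log2 1.12, edgeR adjusted p = 0.677), within batch 2 (0.75, 0.326) or in females alone (0.96, 0.504). The pooled Bmi1 call was kept in all 20 fits that left out 1 library (log2 0.805 to 0.998, highest edgeR adjusted p = 0.0305). It was also kept with the replicate block (log2 0.873, edgeR adjusted p = 0.0403). Neither of the H3K27 demethylase genes was called in the Ezh2 comparisons.

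Between JAK2-VF and control cells 1 of 11 PRC2 genes (Ezh1) and 2 of 17 PRC1 genes (Cbx6 and Cbx7, whose proteins read the H3K27 mark) were called, all lower in JAK2-VF cells. Of all genes tested, 4.22% were called in this comparison. Ezh1 ran from 51.4 to 101.5 CPM in JAK2-VF libraries against 101.5 to 126 CPM in controls (log2 -0.62 ± 0.18, edgeR adjusted p = 0.0407), Cbx6 changed by log2 -0.48 ± 0.14 (edgeR adjusted p = 0.0377) and Cbx7 by -0.84 ± 0.22 (edgeR adjusted p = 0.0259). These calls lay near the threshold, and each was lost in some of the fits that left out 1 library. Over all such fits the log2 change ran from -0.70 to -0.55 for Ezh1, from -0.57 to -0.37 for Cbx6 and from -0.94 to -0.74 for Cbx7. With 1 of the 10 libraries left out at a time, Ezh1 was called in 2 of 10 fits (without JAK2-VF batch 2 replicate 1 or 2), Cbx6 in 5 of 10 and Cbx7 in 7 of 10, with edgeR adjusted p of up to 0.137, 0.171 and 0.112. The libraries whose removal ended the Cbx6 call were replicates 1 and 2 of batch 1 and replicate 2 of batch 2 among controls, with replicate 1 of batch 1 and replicate 3 of batch 2 among JAK2-VF libraries. For Cbx7 they were replicate 1 of batch 1 and replicate 4 of batch 2 among controls, with replicate 1 of batch 1 among JAK2-VF libraries. None of the 3 was called within either batch alone or in females alone.

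A wider list of 89 other developmental regulators (posterior Hox genes, further homeobox, forkhead, T-box, Zic and bHLH genes, and a few signals such as Shh) gave 65 measured and 12 tested genes. None of the 12 was called in any of the 5 comparisons of Ezh2 genotypes or between JAK2-VF and control cells. At an unadjusted p under 0.05 there were 0 of 12 in JAK2-VF Ezh2-null against JAK2-VF cells, 3 of 12 in Ezh2-null against control cells and 2 of 12 in the pooled comparison (edgeR), where 7.13%, 5.96% and 7.82% of all genes were under that p. These were Gbx2, Hoxc10 and Tbx15 without JAK2-VF and Hoxc10 and Tbx15 pooled, all lower without Ezh2. With 1 allele lost there were 3 of 12 with JAK2-VF (Alx4, Hesx1 and Hoxc9) and 1 of 12 without it (Tbx15), all lower. Of all genes, 3.87% and 5.17% were under that p there. Of the 65, 11.2 ± 1.6 had a count in JAK2-VF Ezh2-null libraries, against 15.7 ± 4.08 in JAK2-VF libraries (SD, n = 6 each). In Ezh2-null libraries 12.2 ± 4.57 had one, against 12.8 ± 3.77 in controls (SD, n = 4 each).

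Markers of other cell types that a sort could hold were read beside the regulators. The summed erythroid list, of which Rhag was the largest part, stood apart with Ezh2 loss in JAK2-VF cells. Summed erythroid markers (6 of 6 measured) were at 116 to 143.7 CPM in JAK2-VF Ezh2-null libraries against 46.4 to 84.2 CPM in JAK2-VF libraries, with no overlap. In Ezh2-null libraries they were at 61.5, 127.5, 119.5 and 23.1 CPM, against 47.1, 50.8, 64.3 and 78 CPM in controls, and these groups overlapped. Of the list, Rhag, a membrane protein of red cells, had the lowest p with JAK2-VF, at 75.8 to 111.1 CPM in JAK2-VF Ezh2-null libraries against 25.3 to 50.8 CPM in JAK2-VF libraries (log2 1.10 ± 0.29, edgeR adjusted p = 0.097). Over all genes with a count, 0.756% had every library of the first group above every library of the second. Rhag had medians of 104.2 and 38.99 CPM in these groups, where the whole list had medians of 126.2 and 66.03 CPM. The log2 change was positive for 4 of the 6 markers. None of the 6 erythroid markers was called in the Ezh2-null comparisons by edgeR, and their part in the regulator counts was not tested.

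Summed endothelial markers (6 of 6 measured) ran from 0.482 to 22.1 CPM in JAK2-VF Ezh2-null libraries against 2.3 to 8.01 CPM in JAK2-VF libraries, and from 10.2 to 32.9 CPM in Ezh2-null libraries against 11.7 to 30.9 CPM in controls. Cdh5, a junction protein that defines endothelium, was at 0 in both Ezh2-null groups, and had counts in 1 of 6 JAK2-VF libraries and 2 of 4 controls. The other tested endothelial markers did not all lie the same way. Cldn5, a tight-junction protein, had log2 values of 3.57 ± 1.53 in JAK2-VF Ezh2-null against JAK2-VF cells and 0.77 ± 1.22 in Ezh2-null against control cells, and the medians over the 5 were -0.42 with 1 positive value and 0.57 with 3 positive values. With JAK2-VF, Cldn5 was near 0 in both groups. It had counts in 3 of 6 JAK2-VF Ezh2-null libraries (at most 0.814 CPM) and 1 of 6 JAK2-VF libraries (0.0275 CPM). Summed stroma and bone markers (10 of 12 measured) ran from 8.15 to 61.9 CPM in JAK2-VF Ezh2-null libraries against 22.5 to 43.5 CPM in JAK2-VF libraries, and from 23.2 to 42.4 CPM in Ezh2-null libraries against 24.4 to 41.7 CPM in controls. The osteoblast marker Bglap was at 0 in these 4 groups. Summed neutrophil and monocyte markers (8 of 8 measured) ran from 301.6 to 5608 CPM in JAK2-VF Ezh2-null libraries against 1247 to 14420 CPM in JAK2-VF libraries, and from 589.3 to 2612 CPM in Ezh2-null libraries against 1729 to 6100 CPM in controls. Megakaryocyte markers (5 of 6 measured) ran from 190 to 1705 CPM in JAK2-VF Ezh2-null libraries against 248.1 to 940.4 CPM in JAK2-VF libraries, and from 235 to 636.5 CPM in Ezh2-null libraries against 273.7 to 491.3 CPM in controls. B and T cell markers (8 of 8 measured) stayed between 0.371 and 11.7 CPM in these 4 groups. None of the endothelial, stromal, neutrophil and monocyte, megakaryocyte or B and T cell markers tested was called in these comparisons either, and of the 10 HSC markers Ly6a alone was, higher in the pooled comparison (log2 0.67 ± 0.11, edgeR adjusted p = 0.00155). Their part in the regulator counts was not tested.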

How the data were processed

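RNA-seq was read from 35 libraries of sorted mouse LT-HSCs. Each deposited file gave unnormalised whole counts for Entrez genes, which the authors made with STAR and mm9 per the submitters' processing notes. No source used here gives versions, annotation, counting tool or strandedness. Without strand, reads of overlapping or antisense genes cannot be told apart. A separate entry for a stretch of Ezh2, at most 0.000935% of a library, stayed out of totals and tests. Symbols came from RefSeq (GRCm38.p6) and matched 19075 of 19138 genes. CPM used total counts of 13.55 to 48.56 M per library. Limits for 0 counts used 3 counts and, like intervals, cover counting error only.

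Tests used edgeR 4.0.16 in R 4.3.3 (TMM, filterByExpr, glmQLFit with robust estimation), and DESeq2 1.42.0 as an alternative. The code was tested on simulated counts. The other alternatives were DESeq2 size factors, no filter, no term for sex, a replicate block, the compared groups only, single batches, females alone, leaving out each library, and leaving out the pair of doubted libraries. No pair of libraries in a group agreed within counting noise. Tables and plots used Python 3.11.15, pandas 2.3.3, numpy 2.4.6, scipy 1.17.1 and matplotlib 3.10.9.

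The members and lists were chosen with earlier results of these data known. Values were given by rule for the genes that passed the filter, the 10 with most counts and those counted in every library of an Ezh2-null group. The others were named to account for every gene, and Bmi1 and other called genes as called members of fixed lists. Rhag, Cldn5 and Cdh5 were named after their values were seen. A marker result is not reported here.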

Additional observations from a re-analysis of the deposited data

Results flagged for a closer look

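In groups of 4 to 8 libraries, the gap between the extreme library and the next was set against Dixon's critical value for the 10 regulators with most counts and for the number and summed level, per library, of the 41 regulators and of the wider list. Of 82 values tested 23 passed. For normally distributed values chance gives about 1 in 20, but that rate does not carry over to sparse counts: in 9 of the 23 every other library of the group was at 0, where any count passes, and 2 of the 23 were a single count. All 23 were high libraries, and since these values are bounded at 0 and mostly near it, nothing is read from that direction.

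Ezh2-null batch 2 replicate 3 held 19 regulators, against 7 in the next library of its group. It also stood apart with 2.148 CPM of Sox11 (next library 0.1005), 0.1983 CPM of Pax8 (next 0) and 0.03305 CPM of Six3 (next 0). In Ezh2-null batch 2 replicate 2, Gata6 was at 0.06125 CPM, with the others at 0.

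Among JAK2-VF Ezh2-null libraries, batch 1 replicate 1 had 1.303 CPM of Foxf1 (next 0.3628) and batch 2 replicate 2 had 0.2232 CPM of Pax9 (next 0). Among JAK2-VF libraries the values were 0.6407 CPM of Pax6 in batch 1 replicate 1 (next 0.1642), 0.2473 CPM of Foxc1 in batch 1 replicate 2 (next 0.1297), 1.07 CPM of Sox11 (next 0.11) and 0.06484 CPM of Gata6 (next 0) in batch 2 replicate 1, and 0.0275 CPM of Pax9 in batch 2 replicate 3 (next 0).

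JAK2-VF Ezh2-heterozygous batch 1 replicate 1 stood apart for 3 genes, with 3.723 CPM of Sox11 (next 1.431), 1.575 CPM of Pax9 (next 0.071) and 1.289 CPM of Sox9 (next 0.3679), and batch 2 replicate 1 for Six3 with 0.6798 CPM (next 0.04087). Among Ezh2-heterozygous libraries the doubted batch 1 replicate 1 had 3.43 CPM of Sox9 (next 0.5608) and the doubted batch 1 replicate 3 had 3.28 CPM of Foxf1 (next 1.122) and 0.2688 CPM of Gata6 (next 0). Batch 1 replicate 2 had 1.606 CPM of Pax8 (next 0.1075). In controls, batch 1 replicate 1 had 0.4994 CPM of Sox11 (next 0.04684) and 0.3995 CPM of Pax9 (next 0), and batch 2 replicate 2 had 1.535 CPM of Six3 (next 0).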

How the results depend on the processing

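The number of regulators called stayed at 0 in all 165 recomputations over the 7 comparisons, and the lowest adjusted p of a regulator in any of them was 0.1408. Of 1123 recomputed log2 changes of the 7 tested regulators, 85 changed sign and 0 passed the threshold; the sign changed at least once for 28 of 49 log2 changes. Counted at 3 or more counts, the mean number of regulators per library was 4.667 in JAK2-VF Ezh2-null, 4.875 in JAK2-VF Ezh2-heterozygous, 6.667 in JAK2-VF, 5.75 in Ezh2-null, 4.571 in Ezh2-heterozygous and 6.5 in control libraries. Without Isl1, Sox9 and Pax6 the summed level was 1.171 CPM in JAK2-VF Ezh2-null, 1.94 in JAK2-VF Ezh2-heterozygous, 1.354 in JAK2-VF, 2.303 in Ezh2-null, 2.361 in Ezh2-heterozygous (1.549 without the doubted pair, a setting chosen after seeing the data) and 2.767 in control libraries. Over all genes, DESeq2 called 193 between JAK2-VF Ezh2-null and JAK2-VF cells (edgeR 71), 97 between Ezh2-null and control cells (edgeR 1) and 210 in the pooled comparison (edgeR 61). Leaving out 1 library gave 38 to 66 calls with JAK2-VF (38 without JAK2-VF batch 1 replicate 1), 0 to 2 without JAK2-VF, 37 to 63 in the pooled comparison (37 without control batch 1 replicate 2) and 282 to 676 between JAK2-VF and control cells (edgeR 631).

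Libraries with the same replicate number did not deviate together: of 69 such pairs 0 had a correlation over 0.1 (median -0.035). With the replicate block, 0 regulators were called, with lowest adjusted p of 0.5732 in JAK2-VF cells, 0.799 without JAK2-VF and 0.4304 pooled. At these depths a regulator at 0 in a group was limited, by counting error alone, only to under 0.0121 to 0.0352 CPM, and 34 of 41 regulators had too few counts to be tested.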
